A study of Mus musculus with 6 samples.

Results

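The cytosolic ribosomal protein genes were described here in mouse CD4+ T cells with and without a cancer-associated change in the splicing factor Sf3b1. They were chosen by symbol: every row of the deposited table named Rpl or Rps with a number, together with Rpsa, Rplp0, Rplp1 and Rplp2. The S6 kinase genes, Rps19bp1 and rows with -ps or Gm names were left out. This gave 92 of 26469 gene rows, 38 for the small and 54 for the large ribosomal subunit.

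RNA from 6 cultures of splenic naive CD4+ T cells was sequenced after removal of ribosomal RNA. All cells came from Sf3b1K700E/fl mice, which carry a conditional K700E allele. The 3 control samples came from mice without Cre and have the genotype label WT, while the 3 mutant samples carried Cd4Cre and have the label Sf3b1 mutation. Cd4Cre is driven by Cd4 sequences, which are active in all thymocytes that pass through the CD4+CD8+ stage. Every culture was held for 36 h with TGF-β at 5 ng/ml and hamster antibodies to CD3 and CD28, together with antibodies to IL-4 and IFNγ, a mixture that drives naive cells towards regulatory T cells. Neither the age of the mice nor the number of animals behind the samples is stated. P-values therefore cover the spread among these 6 samples alone, and part of that spread could be technical. In bulk RNA, fewer cells of a type and less RNA per cell cannot be told apart.

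Each ribosome holds one copy of most ribosomal proteins, arranged around the ribosomal RNA of a small subunit, which decodes the mRNA, and a large subunit, which joins amino acids. Their mRNAs begin with a run of C and T bases (the TOP motif), through which mTORC1 and LARP1 adjust their translation and stability together. T cells make many more ribosomes when they are activated. Ribosomal protein mRNAs have also been copied back into the genome many times, so that the mouse has large numbers of near-identical pseudogenes.

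The deposited counts summed to between 33633196 and 43928723 per library. CD4 T cell markers (8 genes, among them Cd4 and Cd3e) summed to 1551 to 2234 CPM (each count divided by the scaled total of its library) in control and 1897 to 2772 CPM in mutant libraries, with the highest value in mutant 1. Erythroid, dendritic, NK and myeloid marker sums were at most 4.503 CPM in every library. The 2 CD8 T cell genes summed to 5.81 to 40.4 CPM in the controls, against 6.56 to 17.3 CPM in mutant libraries, and the 6 B cell genes to 134 to 157 and 123.2 to 222 CPM. The endothelial and T cell gene Pecam1 was highest in mutant 1, at 151 CPM, with 47.5 and 30.6 CPM in mutant 2 and 3 and 18.9 to 26.9 CPM in the controls, so every mutant lay above every control. The part of these differences in the ribosomal protein levels was not tested.

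Windows around annotated transcription starts were read from RefSeq (build GRCm38.p6) and could be matched for 67 of the 92 genes. The windows below cover 15 bases on each side of the start of 5 genes that are described by library further on, shown to compare their starts. In 4 of them the levels did not overlap between the groups, which 6.59% of the tested members and 6.63% of all genes showed in this direction, and Rps2 had the lowest fold change. Capitals mark the longest run of C and T in the window, the first one where runs tie.
Rps7: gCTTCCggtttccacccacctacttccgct
Rps15a: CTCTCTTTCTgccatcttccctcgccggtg
Rpl34: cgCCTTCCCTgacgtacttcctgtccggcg
Rpl37: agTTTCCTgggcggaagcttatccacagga
Rps2: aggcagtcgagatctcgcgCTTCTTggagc

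They lie at chr12:28635939-28635968 (minus strand, Rps7), chr7:118116133-118116162 (minus, Rps15a), chr3:130730384-130730413 (minus, Rpl34, the first of 2 listed starts), chr15:5116598-5116627 (plus, Rpl37) and chr17:24720048-24720077 (plus, Rps2). The marked runs differ in length and place. That of Rps15a spans 10 bases and ends before the annotated start, while that of Rps2 spans 6 bases and lies after it. The Rps15a window also holds a shorter run, tcttccctc, which spans the annotated start. A run of at least 8 C or T bases beginning with C, on the sense strand (that of the mRNA) within 50 bases of the start, was found in 55 of 67 ribosomal protein genes (82.1%). Among all 27025 genes with a window the share was 32%. It was 73.1% for the small and 87.8% for the large subunit. On the opposite strand 14 of the 67 genes (20.9%) held such a run against 34.4% of all genes. There the small subunit had 1 of 26 (3.85%), while the large subunit, with 13 of 41 (31.7%), was close to all genes. The letters CCGGAAG, the core bound by ETS factors such as GABPA, were found on either strand of the 300-base window in 38.8% of ribosomal protein genes and 9.93% of all genes. These are matches of letters, not measured binding sites. The median log2 fold change was 0.09 over the 54 tested genes with the C and T run and 0.14 over the 12 without it.

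No ribosomal protein gene differed between mutant and control cells by edgeR's quasi-likelihood test with Benjamini-Hochberg adjustment over the 18323 genes tested. Of the 92 genes, 91 passed the filter on low counts, and 0 of them were called, where 0% of all genes were. An unadjusted p under 0.05 was reached by 0 of the 91 and by 7.62% of all genes, the smallest being 0.0861 for Rps15a. Limma-voom also called 0 ribosomal protein genes, with 0 at an unadjusted p under 0.05. DESeq2 called 0 of the 91 as well (smallest adjusted p = 0.8, 0 with an unadjusted p under 0.05), against 0.465% of all genes. The 95% interval of the log2 fold change held 0 for all 91 genes and stayed within 1 log2 unit of 0 for 89 of them. Their median standard error was 0.15 for the small and 0.14 for the large subunit, against 0.28 over all genes, so that these abundant mRNAs were measured with less spread than most.

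Mean levels nevertheless lay mostly on the higher side in mutant cells, by small amounts. For the small subunit, 35 of 38 genes (92.1%) had a log2 fold change above 0, with a median of 0.15, quartiles of 0.048 and 0.21 and a range from -0.30 (Rps2) to 0.35 (Rps27rt). For the large subunit, 41 of 53 (77.4%) lay above 0, with a median of 0.073, quartiles of 0.011 and 0.12 and a range from -0.086 (Rpl10) to 0.28 (Rpl37a). Over all genes tested 52.9% lay above 0, with a median of 0.024 and quartiles of -0.18 and 0.28. The ribosomal protein genes share their libraries and are not replicates of each other, so these counts carry no test.

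**Figure D1:**
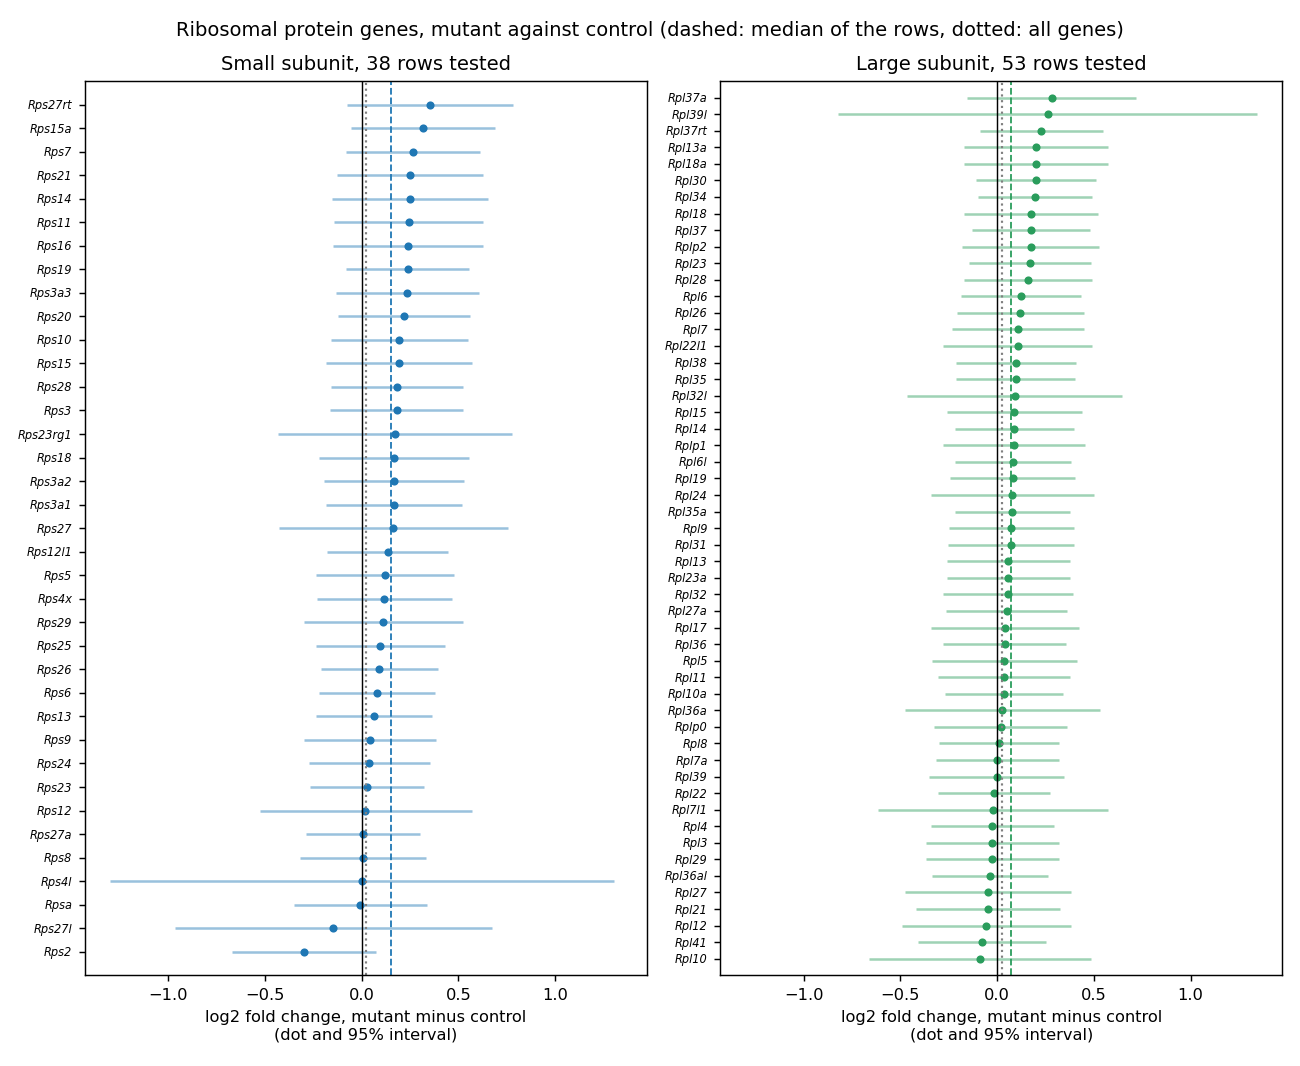
Log2 fold change (mutant minus control) of each tested ribosomal protein gene on the horizontal axis, sorted within the small subunit (38 rows tested, 1 of them not drawn) and the large subunit (53 rows); dots are edgeR estimates, lines 95% intervals, dashed lines the medians of all tested rows and dotted lines that of all genes. Most dots lie to the right of 0 and all intervals drawn hold 0.

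The size of this tilt depended on single libraries. Relative to the control mean, the median log2 CPM of the small subunit genes was -0.095, 0.12 and -0.021 in control 1, 2 and 3 and 0.30, 0 and 0.13 in mutant 1, 2 and 3. For the large subunit it was -0.097, 0.12 and -0.009 in the controls and 0.13, -0.015 and 0.15 in the mutants. Over all genes tested the same medians ran from -0.008 to 0.023. The scaling of the libraries holds that median near 0, so it is no measure of how far a smaller set of genes can move. Control 2 lay above mutant 2, and the groups overlapped for both subunits.

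The 2 subunit medians lay close together in every library except mutant 1. The small minus the large subunit level was 0.002, -0.004 and -0.012 in control 1, 2 and 3 and 0.17, 0.015 and -0.023 in mutant 1, 2 and 3. Mutant 1 was the highest of the 6 libraries for 24 of 38 small subunit genes (63.2%), 17 of 53 large subunit genes (32.1%) and 30.6% of all genes. It was the lowest for 4 small and 8 large subunit genes, against 29.1% of all genes. Mutant 3 was the highest library for 6 small and 21 large subunit genes. Control 1 was the lowest of the 6 for 23 small and 28 large subunit genes, where it was so for 13% of all genes. Without mutant 1 the difference between the subunits' median log2 fold changes went from 0.077 to 0.007, with medians of 0.083 for the small and 0.076 for the large subunit, and 33 of 38 small and 42 of 53 large subunit genes lay above 0, as did 52.1% of all genes. Without control 1 the medians were 0.09 and 0.004, and 29 of 38 small and 28 of 53 large subunit genes lay above 0, against 55.7% of all genes. Without control 2 they were 0.20 and 0.14.

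**Figure D2:**
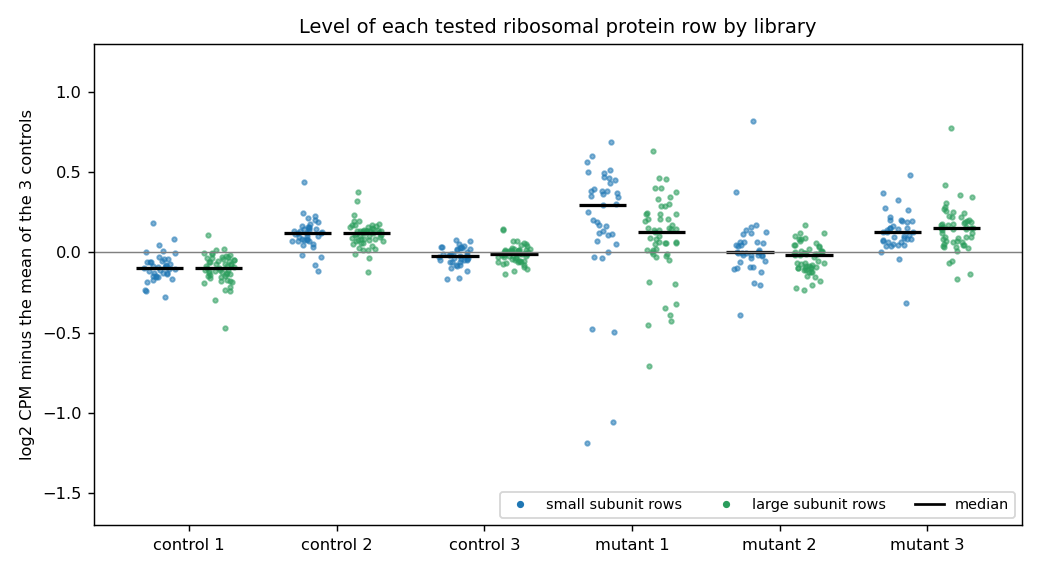
Each dot is 1 tested ribosomal protein gene in 1 library, as log2 CPM minus the mean of the 3 controls on the vertical axis; blue is the small and green the large subunit, and black bars are medians. The 2 medians of a library lie close together except in mutant 1, at 0.30 and 0.13.

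Member rows together took 2.73%, 2.90% and 2.82% of the counts in control 1, 2 and 3 and 3.30%, 2.83% and 3.03% in mutant 1, 2 and 3. Control 2 lay above mutant 2, so the groups overlapped. The means were 2.81 ± 0.088% and 3.06 ± 0.24% (SD, n = 3), a difference of 0.24 percentage points that was 0.12 without mutant 1. The small subunit rows took 1.27 ± 0.038% and 1.41 ± 0.13%, the large subunit rows 1.54 ± 0.050% and 1.65 ± 0.10%.

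In 6 of the 91 tested genes (6.59%) every mutant library lay above every control library, as did 6.63% of all genes, and in 0 of the 91 every mutant library lay below, as against 7.48% of all genes. The 6 were Rps7, Rps15a, Rps27rt, Rpl34, Rpl37 and Rpl37rt. Their share is therefore close to the background.

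Rps15a, a small subunit protein that contacts the central part of 18S rRNA, was at 286, 304 and 301 CPM in control 1, 2 and 3 and at 450.5, 331 and 329.6 CPM in mutant 1, 2 and 3. Mutant 1 stood far above the rest, and mutant 2 and 3 lay nearer to the highest control. The fitted log2 fold change of 0.32 ± 0.16 (SE) had 95% limits of -0.057 and 0.69 (edgeR adjusted p = 0.703), and became 0.17 without mutant 1.

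Rps7, a small subunit protein that can also bind MDM2, was at 79.1, 89.5 and 86.8 CPM in the controls, against 119.9, 92.9 and 94.1 CPM in the mutants. The gap between the highest control and the lowest mutant library was narrow, and the log2 fold change was 0.27 ± 0.15 (SE), 0.15 without mutant 1. Rps27rt, a retrocopy of the small subunit gene Rps27, was at 332, 409 and 379.7 CPM in the controls, against 599, 419 and 413 CPM in the mutants. Its log2 fold change of 0.35 ± 0.19 (SE) was 0.17 without mutant 1. All 3 genes had the same profile, with mutant 1 high and the other two mutants nearer to the controls.

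Rpl34, a large subunit protein, was at 109, 110.5 and 108 CPM in the controls, against 134.5, 114 and 127 CPM in the mutants. Rpl37, a zinc-binding large subunit protein, was at 33.7, 33.6 and 34.2 CPM in the controls, against 39.9, 34.6 and 40.03 CPM in the mutants. In both, the controls differed by little, mutant 2 lay just above them and mutant 1 and 3 lay further above. The log2 fold changes were 0.20 ± 0.13 and 0.18 ± 0.13 (SE). Rpl37rt, its retrocopy, was at 75.5, 82.3 and 84.6 CPM in the controls, against 107, 88.0 and 89.4 CPM in the mutants (log2 fold change 0.23 ± 0.14, SE, and 0.15 without mutant 1).

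Rps2, which lines the entry of the mRNA channel, went the other way. It was at 1135, 1207 and 1081 CPM in the controls, against 807, 869.7 and 1105 CPM in the mutants. Mutant 1 and 2 lay below every control, while mutant 3 lay between control 3 and control 1. Its log2 fold change of -0.30 ± 0.16 (SE) had 95% limits of -0.67 and 0.073 (edgeR adjusted p = 0.713), and it was -0.20 without mutant 1 and -0.45 without mutant 3. Rps27l, a paralogue of Rps27 that p53 is known to induce, was at 62.7, 103 and 68.0 CPM in the controls, against 36.5, 98.7 and 76.2 CPM in the mutants. Here the spread within each group exceeded the difference, and the log2 fold change was -0.15 ± 0.36 (SE), turning to 0.18 without mutant 1 and to 0.11 without control 2.

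**Figure D3:**
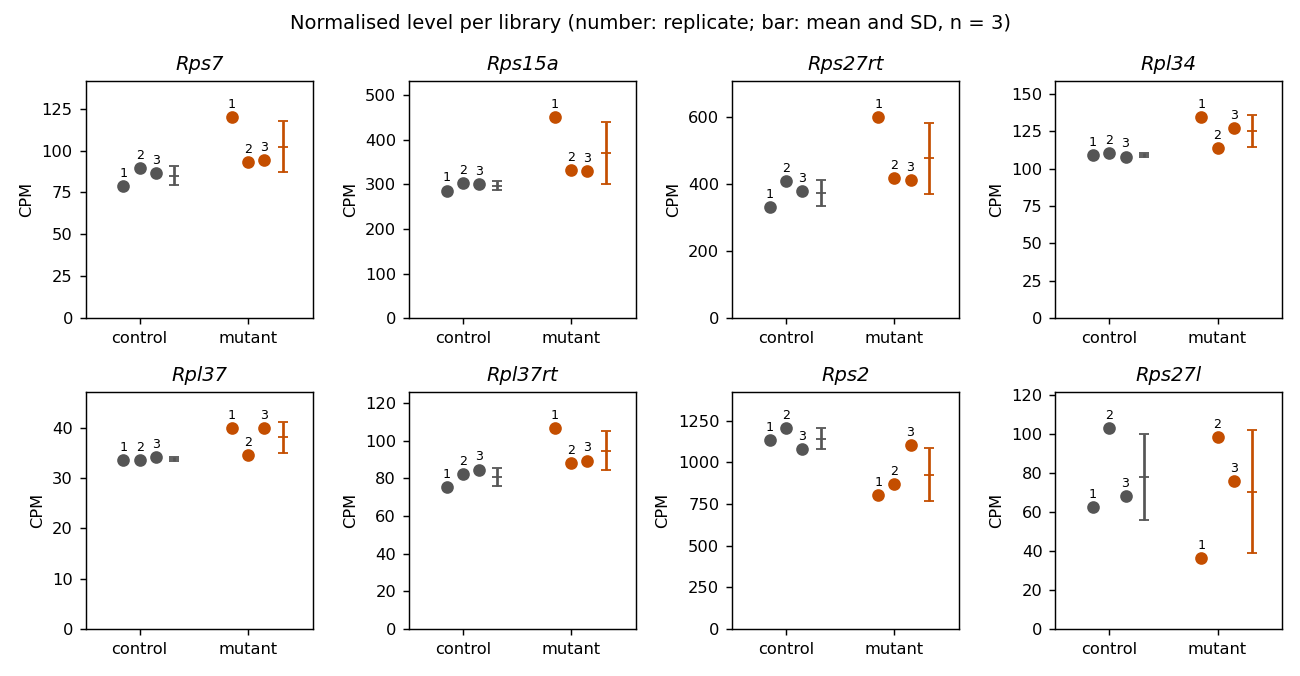
CPM (vertical axis, from 0) of 8 ribosomal protein genes in each library, numbered by replicate, with the mean and SD of each group (n = 3); the panels hold the 6 genes whose groups did not overlap, with Rps2 and Rps27l. Mutant 1 is the highest library in Rps7, Rps15a, Rps27rt, Rpl34 and Rpl37rt and the lowest in Rps2 and Rps27l.

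Among the other small subunit genes, Rps6, whose protein is the classical substrate of the S6 kinases, was at 203, 238 and 238 CPM in the controls, against 245, 236 and 238 CPM in the mutants. Only control 1 stood apart, and the log2 fold change was 0.082 ± 0.13 (SE). Of the genes whose loss of one copy impairs red cell formation, Rps14, known from the 5q- syndrome, was at 456 ± 32.1 CPM in the controls, against 542 ± 112 CPM in the mutants (SD, n = 3). The latter spread came from mutant 1, at 671 CPM. The Diamond-Blackfan anaemia gene Rps19 was at 219 ± 19.9 and 258 ± 21.5 CPM, with control 2 level with mutant 2. Rps24 and Rps26, from the same disease group, had log2 fold changes of 0.039 ± 0.14 and 0.092 ± 0.13 (SE). Rps25, which several viral internal ribosome entry sites need, Rps27a, made as a fusion with ubiquitin, and the X-linked Rps4x had log2 fold changes of 0.097 ± 0.15, 0.007 ± 0.13 and 0.12 ± 0.15. Rpsa, also known as the laminin receptor, was at 862 ± 68.1 and 858 ± 99.7 CPM, a log2 fold change of -0.006 ± 0.15 (SE). Each of these differences was smaller than 2 standard errors.

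The stalk of the large subunit, which recruits the translation GTPases, is made by Rplp0, Rplp1 and Rplp2. Rplp0 was at 1503 ± 157 CPM in the controls, against 1523 ± 144 CPM in the mutants and Rplp1 at 371 ± 32.2 and 394 ± 58.6 CPM (SD, n = 3). Rplp2 was at 111 ± 5.37 and 126 ± 19.8 CPM. In all 3 genes mutant 2 was the lowest library and the groups overlapped. Rpl12, at the base of the stalk, was at 76.97, 83.4 and 76.1 CPM in the controls, against 58.5, 73.7 and 95.2 CPM in the mutants. Mutant 1 was its lowest and mutant 3 its highest library.

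Rpl5 and Rpl11 form a particle with 5S rRNA that binds MDM2 when it is not built into ribosomes. Rpl5 was at 67.6, 57.8 and 63.4 CPM in the controls, against 54.8, 62.4 and 76.5 CPM in the mutants, and Rpl11 at 49.8, 58.1 and 54.9 CPM and at 53.1, 50.2 and 63.5 CPM. The groups overlapped widely in both, with log2 fold changes of 0.037 ± 0.16 and 0.035 ± 0.15 (SE). Rpl3, near the catalytic centre, was at 398 ± 17.5 and 392 ± 56.4 CPM (SD, n = 3). Rpl10, which completes that centre late in assembly and is mutated in some T cell leukaemias, was at 50.0, 48.1 and 49.8 CPM in the controls, against 30.2, 46.1 and 63.1 CPM in the mutants. Its controls were nearly equal and its mutants spread to both sides of them.

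Rpl22, which T cell development requires, was at 279 ± 13.0 CPM in the controls, against 276 ± 14.02 CPM in the mutants (SD, n = 3), with a log2 fold change of -0.016 ± 0.13 (SE). Its paralogue Rpl22l1 was at 49.3 ± 2.89 and 53.1 ± 9.66 CPM, with mutant 1 the highest and mutant 2 the lowest library. Rpl7 had a log2 fold change of 0.11 ± 0.15 and its paralogue Rpl7l1 one of -0.021 ± 0.26, Rpl39 one of -0.002 ± 0.15, and Rpl36a and its paralogue Rpl36al ones of 0.028 ± 0.22 and -0.036 ± 0.13 (SE). Rpl38, needed for the translation of some Hox mRNAs, Rpl10a of the L1 stalk and Rpl13a had log2 fold changes of 0.10 ± 0.13, 0.035 ± 0.13 and 0.20 ± 0.16 (SE). Rpl37a had the highest log2 fold change of the large subunit, 0.28 ± 0.19 (SE), from 104, 117 and 98.8 CPM in the controls, against 165, 105 and 119 CPM in the mutants, and Rpl41 the second lowest, -0.080 ± 0.14. For Rpl37a the value of mutant 1 stood apart (log2 fold change 0.085 without it), and mutant 2 lay between control 1 and control 2.

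The paralogues known from single tissues were barely detected. Rpl39l, known from the testis, was at 0.35 ± 0.11 CPM in the controls, against 0.43 ± 0.18 CPM in the mutants, on 8 to 23 counts. Rps4l was at 0.52, 0.49 and 0.55 CPM in the controls, against 0.20, 0.96 and 0.41 CPM in the mutants, which lay on both sides of the controls. These were the 2 genes whose 95% interval reached beyond 1 log2 unit. Rpl3l, known from striated muscle, had 1 or 2 counts in each control and 0 in each mutant library, which is at or under the limit that a count of 0 allows (3 counts), so no fold change is given. It was the one member that was not tested. These limits cover counting error only.

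Many values of these genes were not whole, and much of their sequence also occurs in other rows. Of the 552 deposited member values, 90.6% were not within 0.01 of a whole number, against 36.3% of all values. How the fractions arose is not stated. In the GENCODE M21 transcripts (GRCm38), a median of 35.6% of a member's 50-base stretches also occurred in transcripts of other rows, and 28 members shared at least 50% of them. Rows of 184 pseudogenes or predicted genes shared at least 50% of their own 50-base stretches with a member. Together these rows took 2.76 ± 0.10% of the counts in control and 3.03 ± 0.28% in mutant cells (SD, n = 3), about as many as the members themselves. When members that share 50% of their stretches were joined and these rows added, the 92 members made 86 families, of which 66 had such added rows. In 45 families under 50% of the reads stood in the row under the gene's own symbol, and in 10 under 10%.

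The clearest case was Rps27 with its retrocopy Rps27rt. Their start windows are shown because 91.1% of the retrocopy's 50-base stretches also occur in transcripts of other rows, that of Rps27 among them. Capitals mark the longest run common to both windows.
Rps27: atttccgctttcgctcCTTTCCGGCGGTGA
Rps27rt: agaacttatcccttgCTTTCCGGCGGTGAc

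The windows lie at chr3:90213634-90213663 (minus strand, Rps27) and chr9:114982725-114982754 (minus, Rps27rt) in RefSeq's GRCm38.p6. They share 14 bases, which begin at the annotated start of Rps27rt and 1 base after that of Rps27. Of the reads of the pair and its 1 near-copy row, the Rps27 row held 0.86%, at 3.94, 3.42 and 3.07 CPM in the controls, against 3.89, 3.44 and 4.36 CPM in the mutants. The retrocopy row held nearly all the rest, so its values above cannot be told apart from those of Rps27.

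In other families too, most reads stood outside the gene's own row. Rpl5 held 3.55% of its family's reads, while the predicted gene Gm15500, all of whose 50-base stretches occur in Rpl5, was at 1724 CPM. Rpl10 held 4.14% (largest other row Rpl10-ps3, 96.1% shared), Rpl24 3.15%, Rpl12 6.21% (Gm10275) and Rps6 15.7% (Rps6-ps4). Rps7 held 11.1% of its family's reads and Rpl3 21.4%. Rpl37 held 29.1% of the reads of its family, whose other row is the retrocopy Rpl37rt. Of the 50-base stretches of Rpl37rt, 91.0% also occur in transcripts of other rows, so its values above cannot be told apart from those of Rpl37. The rows of Rpl11 and Rpl36a, described above, held 8.71% (largest other row Gm10288) and 6.29% (Rpl36a-ps2) of theirs.

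The share that fell to the gene's own row also varied by library. It was 5.21%, 3.70% and 4.54% for Rpl10 in control 1, 2 and 3 and 2.58%, 3.88% and 5.13% in mutant 1, 2 and 3. For Rps12, a small subunit protein, it was 12.9%, 13.2% and 13.1% in control and 8.16%, 12.4% and 15.6% in mutant cells. Among the 23 families with under 25% of reads in the own row, this share was lowest in mutant 1 in 20 and highest in mutant 3 in 10. Of the 65 tested families with any reads outside the own row, it was lowest in mutant 1 in 41.

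**Figure D4:**
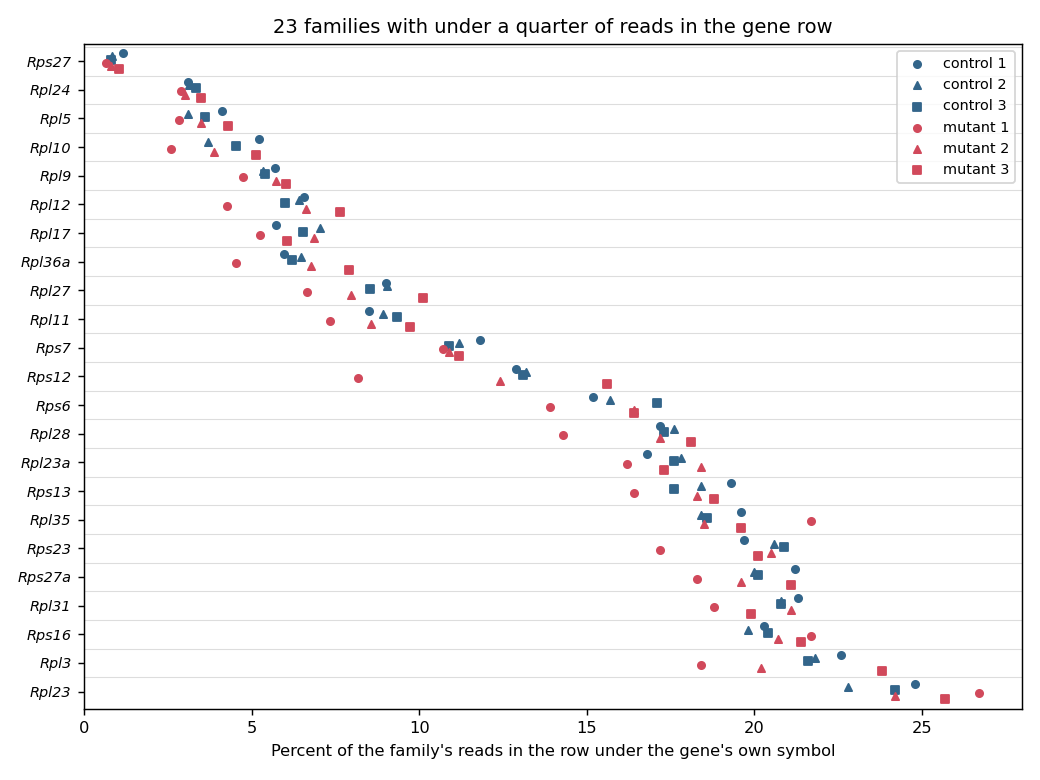
Percent of a family's reads that stood in the row under the gene's own symbol (horizontal axis) in each of the 6 libraries, for the 23 families with under 25%; control libraries are blue and mutant libraries red. Mutant 1 (red circle) is the lowest point in 20 of the 23.

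Summing the families changed no call and moved single genes. After near-copies were summed, 0 of 85 tested families were called by edgeR's quasi-likelihood test (smallest adjusted p = 0.71), and 0% of all genes. The small subunit families lay above 0 in 32 of 34 cases with a median log2 fold change of 0.13, and the large subunit families in 42 of 51 with a median of 0.083, against 52.8% of all genes. The groups did not overlap in 5 families, all higher in mutant cells (Rps7, Rps15a, Rps27, Rpl34 and Rpl37), against 6.59% of all genes. Rpl10 went from -0.086 for its row to 0.098 ± 0.15 (SE) for its family, at 959, 1302 and 1096 CPM in the controls, against 1170, 1186 and 1230 CPM in the mutants. Rps12 went from 0.020 to 0.14 ± 0.14. The Rps2 family stayed at -0.30.

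The 12 member rows that were lowest in mutant 1 included Rpl5, Rpl10, Rpl12, Rpl3 and Rps12, and 4 of the 12 families were still lowest there: Rps2, Rps27l, Rps4l and Rpl7l1. Those of Rpl5 and Rpl12 had their highest value in mutant 1. Over the summed families mutant 1 was the highest library in 26 of 34 small and 30 of 51 large subunit families, and in 30.3% of all genes. Mutant 3 was the highest in 1 small and 7 large subunit families, against 6 small and 21 large subunit genes before summing. The median level of the summed large subunit families was 0.18, -0.020 and 0.095 in mutant 1, 2 and 3. Without mutant 1 the medians of the summed families were 0.042 for the small and 0.024 for the large subunit, with 27 of 34 and 35 of 51 above 0.

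**Figure D5:**
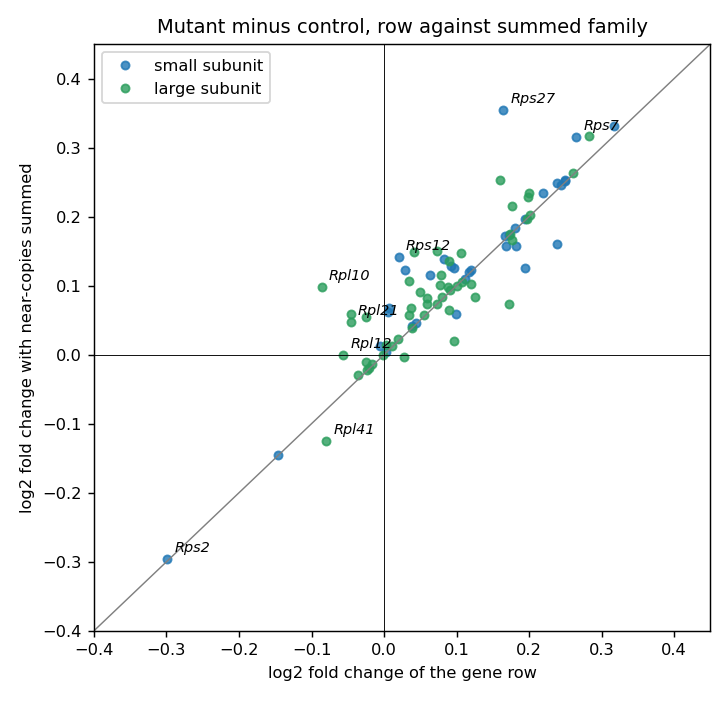
Log2 fold change (mutant minus control) of the row under the gene's own symbol (horizontal axis) and of the family with near-copies summed (vertical axis); each dot is 1 tested family and the line marks equal values. Most dots lie near the line, Rpl10 and Rps27 lie above it, and Rps2 lies on it at -0.30.

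The genes around the ribosomal proteins were read from lists by role, and edgeR's quasi-likelihood test called 0 genes in each of them. Fau, which makes a small subunit protein as a ubiquitin-like fusion, was at 136 ± 2.01 CPM in the controls, against 165 ± 41.9 CPM in the mutants (SD, n = 3). It stood at 214 CPM in mutant 1 against 137 and 145 CPM in mutant 2 and 3, so mutant 1 was high as in most small subunit genes. Of 21 other translation factors and TOP mRNAs, 10 had a higher and 11 a lower mutant mean (median log2 fold change -0.003). The elongation factor gene Eef1a1 was at 6514, 7638 and 6828 CPM in the controls, against 10270, 7642 and 7135 CPM in the mutants. Npm1, a nucleolar chaperone, ran the other way, at 1309, 1583 and 1347 CPM in the controls, against 708, 1095 and 1494 CPM in the mutants, and Hnrnpa1 was at 621 ± 65.3 and 490.0 ± 109 CPM. Mutant 1 was the highest library for Eef1a1 and the lowest for both Npm1 and Hnrnpa1.

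In the list of mTORC1, LARP1 and 4E-BP genes, 7 of 18 had a higher and 11 a lower mean, with a median log2 fold change of -0.062. Eif4ebp1, a repressor of cap-dependent translation, was at 42.1, 18.2 and 34.8 CPM in the controls, against 8.76, 17.2 and 8.21 CPM in the mutants. Every mutant library lay below every control, but control 2 and mutant 2 were within 1 CPM of each other. Its log2 fold change was -1.48 ± 0.39 (SE), with an edgeR adjusted p of 0.598. The S6 kinase gene Rps6kb2 was at 29.2 ± 3.23 and 36.6 ± 1.34 CPM and Deptor, an inhibitor of mTOR, at 3.99 ± 0.078 and 2.84 ± 0.59 CPM. Of the 6 RSK kinase genes 1 had a higher and 5 a lower mean (median -0.14), with Rps6ka4 at 14.5 ± 1.804 and 12.2 ± 2.10 CPM, Rps6ka5 at 15.1 ± 2.33 and 13.5 ± 2.15 CPM and Rps6ka3 at 165 ± 3.52 and 152 ± 28.9 CPM.

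In a list of 19 genes drawn up around chaperones and importers of ribosomal proteins, 3 had a higher and 16 a lower mutant mean (median log2 fold change -0.17). Not every gene of that list is known for this role. The importin Ipo5 was at 583, 712 and 593 CPM in the controls, against 361, 428 and 649 CPM in the mutants, so that mutant 3 lay within the controls. Bccip, a chaperone of Rpl23, was at 72.3 ± 11.5 and 57.6 ± 14.7 CPM and Nacad at 1.46 ± 0.30 and 2.65 ± 1.85 CPM. Of 16 genes for handling of stalled ribosomes and subunits, 2 had a higher and 14 a lower mean (median -0.10). Zfp598, the ubiquitin ligase that marks collided ribosomes, was at 74.5, 72.2 and 69.0 CPM in the controls, against 59.0, 53.6 and 58.6 CPM in the mutants, with no overlap (log2 fold change -0.33 ± 0.12, SE; edgeR adjusted p = 0.644). G3bp1 was at 565 ± 83.8 and 457 ± 97.0 CPM and Ltn1, the ligase for nascent chains on stalled ribosomes, at 177 ± 12.8 and 158 ± 17.7 CPM.

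Of 8 tested regulators of ribosomal protein gene transcription, 3 had a higher and 5 a lower mean (median -0.073). Myc, the growth regulator, was at 307, 285 and 309 CPM in the controls, against 252, 227 and 281 CPM in the mutants, so every mutant library lay below every control, with a log2 fold change of -0.25 ± 0.14 (SE). Tbpl1 was at 40.8 ± 3.78 and 33.8 ± 4.13 CPM, also without overlap, and Ybx1 at 634 ± 69.8 and 479.5 ± 152 CPM. In 6 of these lists more members had a lower than a higher mean, by 11 to 10 in that of TOP mRNAs, while 52.9% of all genes had a log2 fold change above 0. Whether the lists differ from the ribosomal protein genes was not tested.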

How the data were processed

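Per the submitters' processing notes, the authors used STAR 2.7.8a, Partek and the build GRCm39 (mm39). Their roles, the annotation and the strand setting are not stated. The values deposited by the authors are estimated counts without normalization, 1 column for each of 6 libraries, and were rounded to whole numbers. Libraries of a group differed by more than sampling noise, with a chi-square of 18.7 to 177 per degree of freedom. Ribosomal RNA had been removed from 1.0 µg of total RNA, per the labels' protocols.

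The filter filterByExpr (minimum count 10) left 18323 genes. These were scaled by TMM in edgeR 4.0.16 (R 4.3.3) and compared, mutant minus control, by the two-sided quasi-likelihood test with robust dispersions and no covariate. P-values were adjusted by Benjamini-Hochberg over all genes, with a threshold of 0.05. Standard errors were derived as |log2 fold change| over the root of the F statistic. CPM was computed on TMM-scaled totals, and log2 CPM with a prior count of 2. The level of a subunit in a library is the median over its tested genes of log2 CPM minus the control mean. The procedure was tested on simulated data.

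Near-copies were found in GENCODE M21 transcripts by shared 50-base stretches, an alternative chosen after seeing the data. Coordinates are those of RefSeq windows in GRCm38.p6, not of the authors' build. Rpl34 and any other gene with several listed starts is shown with its first. The members and lists were chosen with earlier results of these data known. Named members are those with known roles, the 5 smallest p in each direction, the 3 lowest and 3 highest fold changes of each subunit and those without overlap of groups, and from each list up to 3 genes with the smallest p. Rps12 and Rpl24, and the genes named for their split reads, were chosen after their values were seen.

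Alternatives were DESeq2 1.42.0, limma-voom (limma 3.58.1), DESeq2 size factors, upper quartile scaling, TMM without ribosomal protein genes and their pseudogenes, no filter, 1 CPM in 3 samples, mitochondrial and small structural RNA genes removed, named pseudogenes added, a threshold of 0.01, a replicate block, and each library left out. Values of a few genes are not reported here.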

Additional observations from a re-analysis of the deposited data

How the results depend on the processing

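The count of 0 called ribosomal protein genes was the same in every alternative listed above, and with any 1 library left out. Over all genes edgeR called 0 in each of its alternatives and limma-voom 0 (1396 and 1299 at an unadjusted p under 0.05), while DESeq2 called 87 and gave no adjusted p to 7716 genes. Across alternatives that kept all libraries the median log2 fold change ran from 0.13 to 0.20 for the small and from 0.05 to 0.11 for the large subunit, and their difference from 0.05 to 0.088. With 1 library left out, they ran from 0.083 to 0.24, from 0.004 to 0.14 and from 0.007 to 0.11. With near-copies summed and 1 library left out, they ran from 0.042 to 0.21, from 0.019 to 0.17 and from 0.018 to 0.089. The difference between the groups in the share of counts was 0.24 percentage points, from 0.12 to 0.35 with 1 library left out, and 0.513 with near-copies summed, which adds reads by construction. With the replicate number as a block, 0 genes were called (991 at an unadjusted p under 0.05) and the medians were 0.14 and 0.074. Same-numbered samples did not deviate together (correlations of -0.048, -0.067 and -0.029), so the numbers were not taken as pairs. For the 40 tested named members, all 437 values under alternatives with all libraries moved by less than the standard error, as did 236 of 240 with 1 library left out. Rpl3l, Rpl39l and Rps4l were limited by depth, and the number of libraries limits the precision of all members. The parts of counting error and of spread between libraries were not separated for single members.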

Other observations

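A further list was drawn up around MDM2 and p53, since free ribosomal proteins can influence p53 through MDM2. It holds Trp53 and Mdm4 beside p53 target genes. In mutant cells 9 of its 9 members had a higher mean, where 52.9% of all genes had a log2 fold change above 0. The median log2 fold change of the list was 0.25, with 0 called by edgeR's quasi-likelihood test. Mutant 1 lay below every control in 5 of the 9 (Mdm2, Cdkn1a, Ccng1, Phlda3 and Zmat3) and within the controls in the other 4 (Trp53, Mdm4, Bax and Bbc3). Mdm2 was at 104, 129.9 and 96.0 CPM in the controls, against 81.7, 190 and 141 CPM in the mutants. Phlda3, a p53 target that restrains Akt, was at 16.7, 37.5 and 14.7 CPM and at 11.1, 56.1 and 46.8 CPM. Bbc3, which encodes the apoptosis protein PUMA, was at 6.85, 13.1 and 8.32 CPM and at 12.9, 16.4 and 12.1 CPM. The ribosomal protein gene Rps27l, itself a p53 target, was at 36.5, 98.7 and 76.2 CPM in the mutants. This is the order of Mdm2 and Phlda3 among the mutant libraries, but not that of Bbc3. Unlike the genes of the list, Rps27l had a lower mean in mutant cells (log2 fold change -0.15). A link between Rps27l and the list was not tested. In both Mdm2 and Rps27l control 2 was the highest control library and the groups overlapped.

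Pseudogene rows with -ps in the symbol of a ribosomal protein numbered 229 and took 1.67 ± 0.061% of the counts in control and 1.84 ± 0.18% in mutant cells (SD, n = 3), 2.05% of them in mutant 1. Mitochondrially encoded genes took 2.13 ± 0.13% and 2.20 ± 0.26%. Mutant 1, the library highest for the ribosomal protein share, was the lowest for mitochondrially encoded genes, at 1.90%.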
